A study of Mus musculus with 8 samples.

Results

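Mitochondrial fatty acid beta-oxidation and ketogenesis were followed through 9 genes taken by name: Cpt1a, Cpt2, Acadl, Acadm, Acadvl, Hadha, Hadhb, Acaa2 and Bdh1. They are grouped by step, from carnitine entry through the beta-oxidation cycle to ketogenesis, and are not ordered by chain length within a step. All 9 were among the 21049 genes listed and among the 9228 tested. RNA was sequenced from 8 mouse samples, 4 labelled alcohol and 4 labelled saline, which served as the control. Every sample was labelled wild type and liver, and the design text names C57BL/6 mice, an inbred strain. The labels also name hepatocytes and AML12, a mouse hepatocyte line. Markers of endothelial, stellate and Kupffer cells were detected in every sample, as given below, which goes with the liver label rather than a hepatocyte line alone. Age, sex, dose and the length of alcohol feeding are not stated in the labels or design text. Nothing there says that each sample was a separate animal, so the p-values cover only the spread among these 8 samples, which may be technical. The title of the study names H19, miR-22 and Sirt1 in alcohol-related liver disease, and the comparison below asks how alcohol samples differed from control samples in the enzymes that burn fatty acids.

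Mitochondria of hepatocytes shorten fatty acids by repeated cycles of dehydrogenation, hydration, a further dehydrogenation and thiolysis, each cycle releasing acetyl-CoA. Long chains cross the inner membrane as carnitine esters, and entry through carnitine palmitoyltransferase 1 is held back by malonyl-CoA. When acetyl-CoA is plentiful, as in fasting, the liver turns it into acetoacetate and beta-hydroxybutyrate for export, and the nuclear receptor PPARA is a main activator of the genes involved.

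With alcohol, 6 of the 9 genes fell, none rose and 3 did not pass the test (limma on log2(FPKM + 1), Benjamini-Hochberg adjusted p below 0.05). Among all tested genes 57.2% passed, 13.0% lower and 44.2% higher. Bdh1, which makes beta-hydroxybutyrate, was lowest relative to control, at 43.7% of the control mean, followed by the carnitine enzyme Cpt2 at 57.3% and the thiolase Acaa2 at 70.9%. Cpt1a, Acadvl and Hadhb fell to between 72.5% and 76.5% of the control mean. Hadha stood at 99.5%, Acadm at 92.9% and Acadl at 84.3%. The groups did not overlap, with every alcohol sample below every control sample, for Cpt2, Acadl, Acadvl, Hadhb, Acaa2 and Bdh1, 6 of 9 genes. That pattern was seen in 10.7% of all tested genes, and the opposite one in 39.5% of them and in none of the 9. In liver tissue, fewer hepatocytes and less RNA per hepatocyte cannot be told apart.

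Library totals recovered from the FPKM values were 37132631 to 38407511 reads in alcohol samples and 33872595 to 34789814 reads in control samples. The 9 genes had between 2839 reads (Cpt2, alcohol replicate 4) and 40248 reads (Acaa2, control replicate 3) in a sample, which sets the counting error at 1.88% and 0.498% of the value. Summed FPKM of 10 hepatocyte markers ran from 66560 to 75464 in alcohol samples and from 68771 to 72540 in control samples, and 2 of the 10 rose and 2 fell. Alb, which was not called, gave most of these sums. Cps1 and Ahsg rose to 163% and 172% of the control mean, while Apoa1 and Ttr fell to 54.6% and 62.9%. Summed FPKM of 8 endothelial markers was 58.6 to 69.8 in alcohol samples and 13.7 to 21.0 in control samples, and all 7 tested endothelial markers rose (5 to 7 over the scalings tried). Summed FPKM of 8 stellate cell and fibroblast markers was 100.1 to 145 in alcohol samples and 42.3 to 72.3 in control samples. Of 7 tested markers 3 were higher (Lrat, Reln and Dcn) and 2 lower (Col3a1 and Acta2). Dcn gave most of these sums, at 101 ± 17.1 FPKM in alcohol samples and 48.6 ± 12.6 FPKM in control samples (SD, n = 4 each). Kupffer cell markers summed to 26.0 to 48.8 FPKM in alcohol samples and 21.1 to 76.8 FPKM in control samples, with 1 of 5 tested lower. No marker of these lists was listed at 0 in all samples. The part that a change in cell make-up has in the results below was not tested. Alcohol replicates 2 and 4 were more alike than any other pair, with a chi-square per gene of 10.1 between their reads against 56.7 for the next closest pair of a group.

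The sequence before a RefSeq start site is shown for both carnitine enzymes and for Bdh1, the outer steps of the pathway. It is also shown for Hadha and Hadhb, which lie head to head. The Cpt1a stretch lies inside the gene as GENCODE M21 gives it, which starts at 3322334. Bdh1 has a second RefSeq start site at 31428753, whose window is not printed. The sequences are from RefSeq on GRCm38.p6, trimmed to bases outside the GENCODE M21 exons of the gene or genes named. Exons of other genes were not checked. Capitals mark the GC box GGGCGG, which reads CCGCCC where it lies on the opposite strand.
Cpt1a, chr19:3323051-3323284, plus strand: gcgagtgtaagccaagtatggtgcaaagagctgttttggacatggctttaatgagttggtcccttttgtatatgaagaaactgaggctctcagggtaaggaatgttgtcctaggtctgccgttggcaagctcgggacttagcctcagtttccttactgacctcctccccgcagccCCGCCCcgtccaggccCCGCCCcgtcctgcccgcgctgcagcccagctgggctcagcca
Cpt2, chr4:107923611-107923839, minus strand: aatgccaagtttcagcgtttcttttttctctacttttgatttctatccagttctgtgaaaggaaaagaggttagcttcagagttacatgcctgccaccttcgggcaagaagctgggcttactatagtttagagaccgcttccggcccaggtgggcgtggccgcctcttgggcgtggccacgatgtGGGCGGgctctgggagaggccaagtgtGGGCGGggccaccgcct
Bdh1, chr16:31422047-31422279, plus strand: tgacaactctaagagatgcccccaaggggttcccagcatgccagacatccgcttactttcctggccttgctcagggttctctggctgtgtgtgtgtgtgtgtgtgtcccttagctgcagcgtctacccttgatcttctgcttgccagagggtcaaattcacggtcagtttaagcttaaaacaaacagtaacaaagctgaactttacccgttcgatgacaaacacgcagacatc
Between Hadha and Hadhb, chr5:30155163-30155247, plus strand: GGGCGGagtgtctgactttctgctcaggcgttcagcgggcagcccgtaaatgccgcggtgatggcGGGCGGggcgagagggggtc
The Cpt1a, Cpt2 and Hadha to Hadhb stretches each held 2 GC boxes and the Bdh1 stretch held 0. Start sites of Hadha (30154980, minus strand) and Hadhb (30155253, plus strand) lay with 272 bases between them, so their upstream windows share most of their bases. A window of 250 bases before the start was searched for 8 of the 9 genes. Acaa2 was left out of this search by choice, so the motif counts below do not cover it. GGGCGG was present in the windows of 5 of the 8 (Acadl, Cpt1a, Cpt2, Hadha and Hadhb) and in 32.7% of 32851 windows of all genes. The hexamer AGGTCA, recognised by nuclear receptors, was present in 3 of the 8 (Acadm, Acadvl and Cpt1a) and in 14.0% of all windows, on either strand. The direct repeat that PPARA and its partner bind, searched on both strands as AGGNCA followed by any 1 base and AGGNCA again, was in 0 of the 8 and in 0.34% of all windows. CCAAT was in the Cpt1a window alone among the 8 and in 33.9% of all windows. These matches describe letters in the windows and say nothing about binding.

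Cpt1a encodes the liver form of carnitine palmitoyltransferase 1, which makes acylcarnitines at the outer membrane and sets the rate of entry. It stood at 94.7, 68.1, 94.8 and 67.6 FPKM in alcohol replicates 1 to 4, against 141, 113, 110 and 85.0 FPKM in control replicates 1 to 4. Alcohol replicates 2 and 4 were the low ones and alcohol replicates 1 and 3 lay above control replicate 4, so the groups overlapped. Cpt1a fell with a log2 change of -0.46 ± 0.17 (SE, limma adjusted p = 0.0435), while the exact permutation test gave p = 0.0857. The call was lost without alcohol replicate 2 (adjusted p = 0.112), alcohol replicate 4 (0.115), control replicate 1 (0.105), control replicate 2 (0.0842) or control replicate 3 (0.0822), with alcohol replicates 2 and 4 averaged into 1 sample (0.113), and with no expression filter (0.101). In all, 9 of 19 alternatives lost it. In GENCODE M21 on GRCm38 the gene lies at chr19:3322334-3385733 on the plus strand.

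Cpt2, the inner-membrane enzyme that turns acylcarnitines back into acyl-CoA, had 33.0, 33.1, 35.2 and 32.5 FPKM in alcohol samples, against 58.4, 61.6, 62.4 and 51.5 FPKM in control samples. All 4 alcohol samples lay within a narrow band below every control sample. Its alcohol mean was 33.5 ± 1.20 FPKM and its control mean 58.5 ± 4.95 FPKM (SD, n = 4 each). The log2 change was -0.78 ± 0.10 (limma adjusted p = 9.28e-05, exact permutation p = 0.0286), and no arrangement of 4 against 4 samples can give a smaller exact p. Cpt2 lies at chr4:107903981-107923610 on the minus strand. It kept its call under all 19 alternative settings, among them other scalings and each sample left out in turn.

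**Figure D1:**
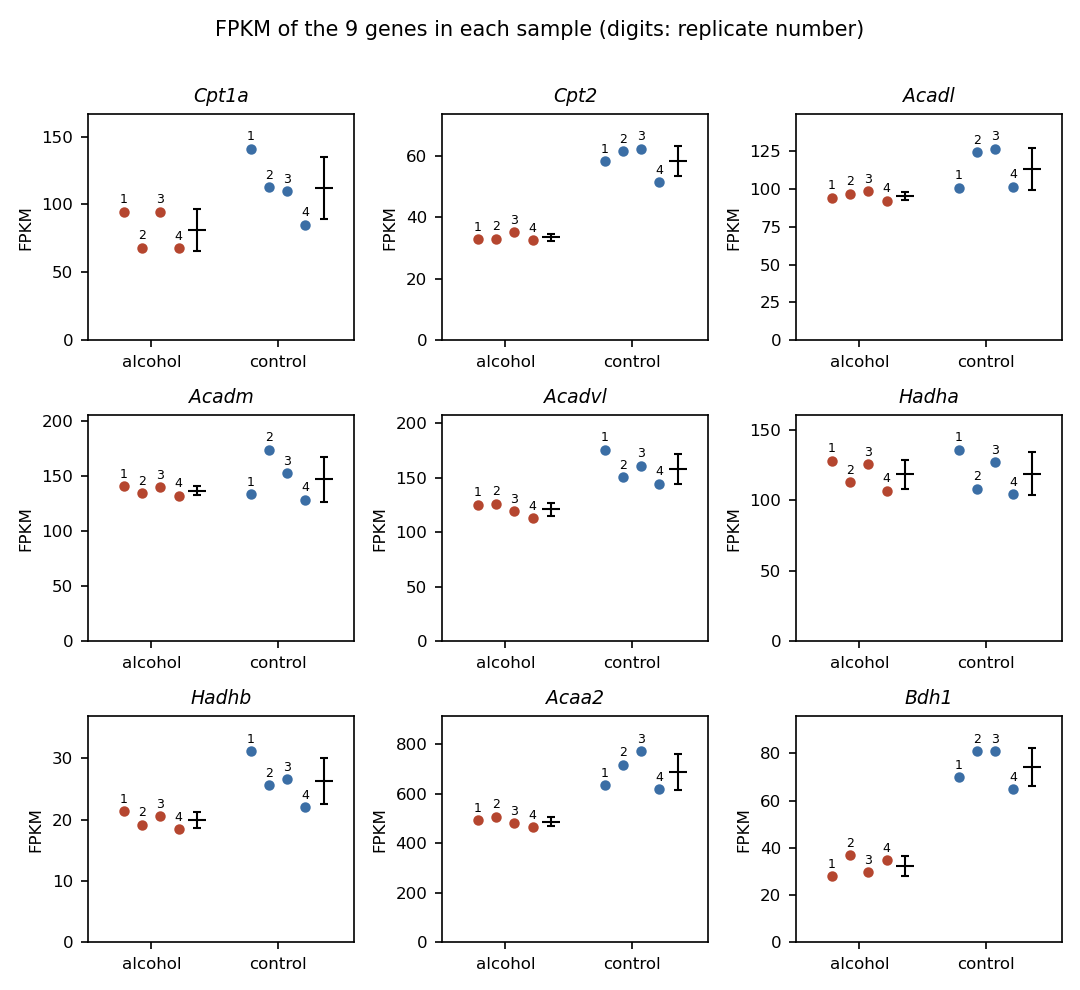
FPKM of each of the 9 genes in alcohol samples (left in each panel) and control samples (right), with 1 point per sample numbered by replicate and the group mean ± SD (n = 4) beside the points. Each panel has its own FPKM axis. The groups are apart for Cpt2, Acadl, Acadvl, Hadhb, Acaa2 and Bdh1 and overlap for Cpt1a, Acadm and Hadha.

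The acyl-CoA dehydrogenases take the first step of each cycle and differ in the chain length they prefer. Acadvl, the very-long-chain enzyme of the inner membrane, had 125, 126, 119 and 113 FPKM in alcohol samples, against 176, 151, 161 and 145 FPKM in control samples. Every alcohol sample lay below every control sample. Acadvl fell with a log2 change of -0.38 ± 0.10 (limma adjusted p = 0.00963, exact permutation p = 0.0286). Its exons share 1151 bases with Dvl2 on the opposite strand, and whether reads were counted by strand is not stated in the labels. Dvl2 was far less abundant, at 0.806 ± 0.149 FPKM in alcohol samples and 0.623 ± 0.0909 FPKM in control samples (SD, n = 4 each).

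Acadl, the long-chain dehydrogenase, had 94.2, 97.0, 98.6 and 92.3 FPKM in alcohol samples, against 101, 124, 127 and 102 FPKM in control samples. The groups did not overlap, but control replicates 1 and 4 lay close to the alcohol samples. The log2 change of -0.24 ± 0.11 did not pass (limma adjusted p = 0.0885, exact permutation p = 0.0286), and without control replicate 1 it was -0.29 with an adjusted p of 0.0405. Acadm, the medium-chain dehydrogenase, had 141, 135, 140 and 132 FPKM in alcohol samples, against 134, 174, 153 and 129 FPKM in control samples. All 4 alcohol values lay inside the control range. Its log2 change was -0.10 ± 0.12 (limma adjusted p = 0.497, exact permutation p = 0.457). In GENCODE M21 the 3 dehydrogenase genes lie on the minus strand, Acadvl at chr11:70010183-70015411, Acadl at chr1:66830839-66863277 and Acadm at chr3:153922357-153944632.

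Hadha and Hadhb encode the alpha and beta subunits of the mitochondrial trifunctional protein, which carries out the remaining steps on long chains: hydratase and hydroxyacyl-CoA dehydrogenase in the alpha subunit and thiolase in the beta subunit. Hadha had 128, 113, 125 and 107 FPKM in alcohol samples, against 136, 108, 127 and 104 FPKM in control samples. The groups were interleaved, and the means were 118 ± 10.2 FPKM in alcohol samples and 119 ± 15.0 FPKM in control samples (SD, n = 4 each). The log2 change was -0.0021 ± 0.12 (limma adjusted p = 0.990, exact permutation p = 0.971). Its sign turned positive without alcohol replicate 2 (0.02), alcohol replicate 4 (0.05), control replicate 1 (0.06) or control replicate 3 (0.03). Hadha shares 75 exon bases with Garem2 on the opposite strand.

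Hadhb had 21.4, 19.2, 20.6 and 18.5 FPKM in alcohol samples, against 31.2, 25.6, 26.6 and 22.0 FPKM in control samples. Every alcohol sample lay below every control sample, with control replicate 4 the nearest. Hadhb fell with a log2 change of -0.38 ± 0.12 (limma adjusted p = 0.0163, exact permutation p = 0.0286). The genes adjoin on chromosome 5, Hadha at chr5:30118304-30155162 on the minus strand and Hadhb at chr5:30155248-30184593 on the plus strand. The ratio of Hadha to Hadhb, which does not depend on how a library is scaled, was 5.97, 5.87, 6.09 and 5.77 in alcohol samples, against 4.35, 4.23, 4.78 and 4.73 in control samples. Every alcohol ratio was above every control ratio, a difference of 0.39 on the log2 scale with an exact permutation p of 0.0286. Adjusted over the 4 ratios compared, the p was 0.114. With 4 against 4 samples the exact p cannot be smaller than 0.0286, so 1 separated ratio among 4 cannot be adjusted below 0.114, and the adjusted value says nothing for or against a difference. The size of the ratio itself depends on the gene lengths the authors used, since the length recovered for Hadhb was 5922 bases and that for Hadha 2716.

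Acaa2, the matrix thiolase that ends the cycle for shorter chains, was the most abundant of the 9 per length, with 493, 508, 482 and 466 FPKM in alcohol samples, against 636, 718, 774 and 619 FPKM in control samples. The highest alcohol sample was well below the lowest control sample. Acaa2 fell with a log2 change of -0.49 ± 0.12 (limma adjusted p = 0.00496, exact permutation p = 0.0286), and it kept its call under all 19 alternatives. It lies at chr18:74779197-74806208 on the plus strand.

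Bdh1 encodes the mitochondrial dehydrogenase that converts acetoacetate to beta-hydroxybutyrate, the last step of ketogenesis. It had 28.0, 37.0, 29.7 and 34.8 FPKM in alcohol samples, against 69.8, 80.9, 81.0 and 64.9 FPKM in control samples. Alcohol replicates 2 and 4 were the higher alcohol samples and still lay far below control replicate 4, the lowest control. Bdh1 fell with a log2 change of -1.17 ± 0.12 (limma adjusted p = 3.41e-05, exact permutation p = 0.0286), and its call held under all 19 alternatives. It lies at chr16:31422280-31458901 on the plus strand, where its exons share 533 bases with the antisense gene Gm15743, which was not used here. Of all tested genes, 1.53% had a lower log2 change than Bdh1, 3.83% lower than Cpt2, 8.71% lower than Acaa2 and 31.0% lower than Hadha.

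**Figure D2:**
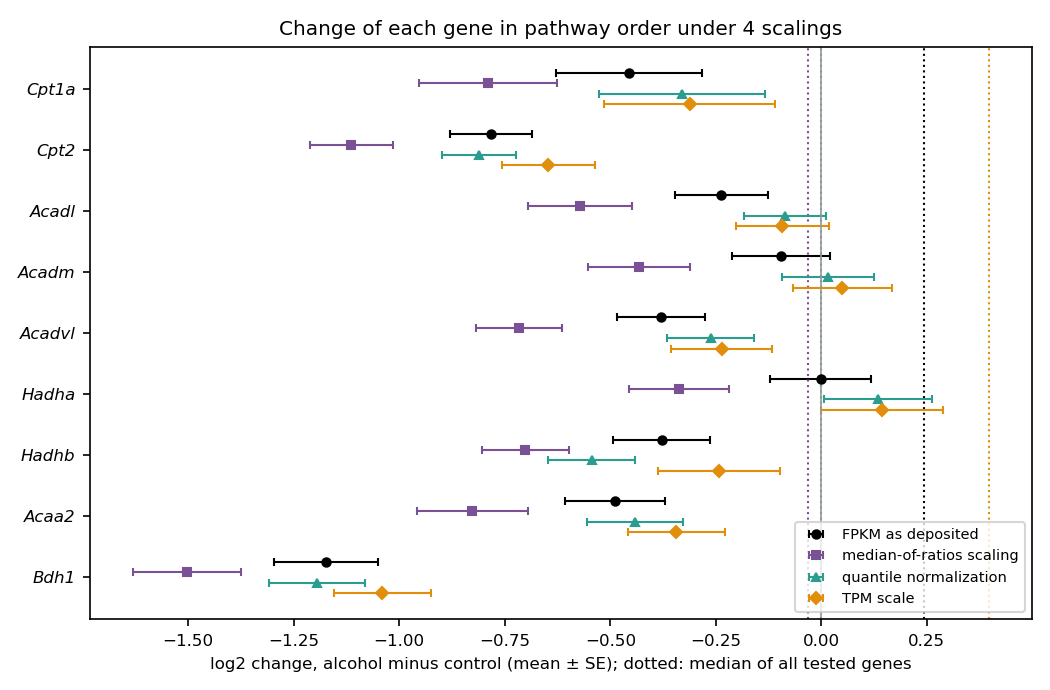
Log2 change (alcohol minus control, mean ± SE) of the 9 genes, grouped by step of the pathway, under 4 scalings of the libraries. Dotted lines mark the median change of all tested genes under each scaling, and that for quantile normalization (-0.0011) lies beside the 0 line. Hadha and Acadm cross 0, while the other genes lie left of 0 under all 4 scalings. Only Bdh1, Cpt2 and Acaa2 passed the test under all 4.

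FPKM divides each library by its own total, and the median log2 change of all tested genes was 0.24, so that a gene with no change lay below the median. Median-of-ratios scaling moved that median to -0.03, and all 9 genes then fell, against 28.3% of tested genes lower and 23.5% higher. The TPM scale divides each sample by its summed FPKM, which was 483138 to 523679 in alcohol samples and 517209 to 576544 in control samples. On the TPM scale the median was 0.40 and 3 of the 9 fell (Cpt2, Acaa2 and Bdh1), against 8.82% of tested genes lower and 52.7% higher. Under these scalings the changes of Bdh1 were -1.50 and -1.04, and those of Cpt2 were -1.11 and -0.65. Acadvl lost its call with quantile normalization (adjusted p = 0.0571) and on the TPM scale (0.107), Hadhb on the TPM scale (0.163), and Cpt1a under both (0.184 and 0.198). Hadha and Acadm had changes above 0, without passing, under quantile normalization and on the TPM scale.

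Alcohol replicates 1 to 4 were above the alcohol mean for 6, 4, 6 and 1 of the 9 genes, and control replicates 1 to 4 were above the control mean for 5, 6, 8 and 0. The order of samples differed between genes, with alcohol replicates 2 and 4 the lower alcohol samples for Cpt1a and the higher ones for Bdh1. Summed over the 9 genes, the alcohol samples had 1158, 1136, 1146 and 1063 FPKM, against 1483, 1556, 1621 and 1322 FPKM in the control samples. Acaa2 gave more to these sums than any other of the 9 genes, and the sums did not overlap between the groups. As a share of all reads, the 9 genes took 0.262%, 0.248%, 0.260% and 0.234% in alcohol samples, against 0.347%, 0.346%, 0.357% and 0.291% in control samples. Spread within a group was widest for Cpt1a, with a coefficient of variation of 19.1% in alcohol samples and 20.4% in control samples, and for Cpt2 it was 3.57% in alcohol samples and 8.46% in control samples.

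The groups overlapped in the other 3 ratios between genes of the pathway. The ratio of Cpt1a to Cpt2 was 2.87, 2.05, 2.69 and 2.08 in alcohol samples, against 2.41, 1.83, 1.76 and 1.65 in control samples, with p = 0.114 by the exact permutation test and 0.152 adjusted over the 4 ratios. Acadl to Acadm gave 0.668, 0.721, 0.705 and 0.697 in alcohol samples, against 0.753, 0.713, 0.8293 and 0.788 in control samples (exact permutation p = 0.0571, adjusted 0.114). Acaa2 to Hadhb, both of them thiolases, gave 23.0, 26.5, 23.4 and 25.2 in alcohol samples, against 20.4, 28.1, 29.1 and 28.1 in control samples (exact permutation p = 0.514).

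**Figure D3:**
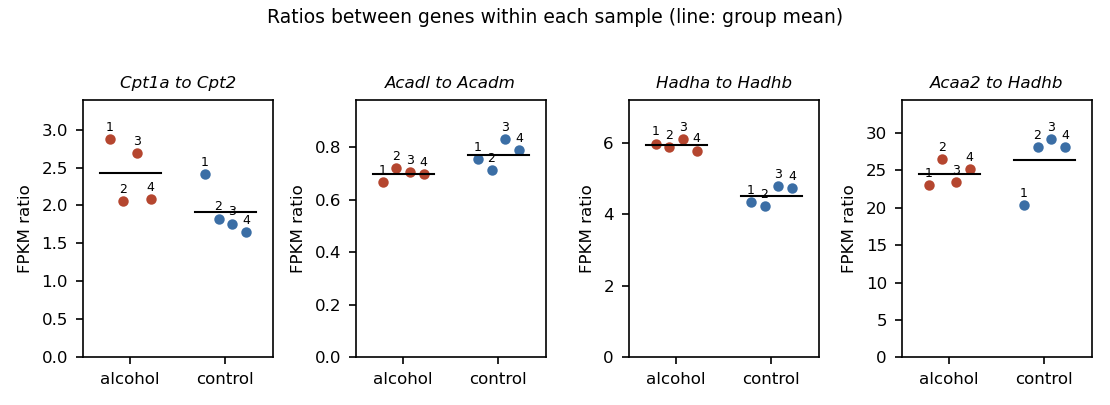
Ratios of FPKM between 4 pairs of the genes in each sample, with alcohol samples left and control samples right in each panel, 1 point per sample numbered by replicate and the group mean as a line. Only the Hadha to Hadhb ratio separates the groups, at 5.77 to 6.09 in alcohol samples and 4.23 to 4.78 in control samples.

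Genes around the 9 in the same pathway were read from 3 lists of 34 genes, of which 27 were tested. Of these 7 rose and 13 fell, with a median log2 change of -0.26, and over the scalings tried 5 to 7 rose and 9 to 15 fell. The 9 genes themselves had a median of -0.38. The counts of these and the following lists stand beside 13.0% of all tested genes lower, 44.2% higher and a median of 0.24.

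In the list of the carnitine shuttle and acyl-CoA entry, 2 of 7 tested genes rose and 3 fell, with a median of 0.17. Slc25a20, the translocase that carries acylcarnitines between Cpt1a and Cpt2, had 46.8, 54.6, 49.96 and 47.6 FPKM in alcohol samples, against 86.4, 94.7, 101 and 83.5 FPKM in control samples. The groups did not overlap, and the log2 change was -0.86 ± 0.10 (limma adjusted p = 7.26e-05). Acsl1, the main acyl-CoA synthetase of liver, fell to 89.1 ± 12.6 FPKM in alcohol samples, against 175 ± 22.4 FPKM in control samples (SD, n = 4 each). Acsl4, a synthetase that prefers arachidonate, went the other way, at 31.5 ± 2.91 FPKM in alcohol samples and 7.11 ± 2.98 FPKM in control samples, a log2 change of 2.06 ± 0.20. Acsl3, a synthetase of the endoplasmic reticulum and lipid droplets, also rose, with 7.66 ± 0.896 FPKM in alcohol samples and 2.81 ± 1.09 FPKM in control samples.

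Of the 15 other mitochondrial beta-oxidation enzymes, 9 fell and 2 rose (Acad10 and Acad12), with a median of -0.39. Those with the smallest p were auxiliary enzymes for unsaturated chains and a short-chain dehydrogenase. Eci2, an enoyl-CoA isomerase, stood at 38.7 ± 3.13 FPKM in alcohol samples and 76.5 ± 7.98 FPKM in control samples, a log2 change of -0.96 ± 0.11. Ech1, a dienoyl-CoA isomerase, stood at 182 ± 7.28 FPKM in alcohol samples and 327 ± 55.4 FPKM in control samples. Hsd17b10, a hydroxyacyl-CoA dehydrogenase also needed for branched-chain amino acid breakdown, stood at 118 ± 6.02 FPKM in alcohol samples and 218 ± 57.1 FPKM in control samples. Decr1, the dienoyl-CoA reductase, fell with a log2 change of -0.55. Both subunits of the electron transfer flavoprotein that takes electrons from the Acad enzymes fell, Etfa to 25.1 ± 0.764 FPKM in alcohol samples, against 35.5 ± 5.33 FPKM in control samples, and Etfb to 296 ± 34.4 FPKM in alcohol samples, against 389 ± 56.9 FPKM in control samples. Over the scalings tried, 6 to 11 of the 15 fell and 1 to 2 rose.

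Ketone body genes beside Bdh1 moved both ways, with 3 of 5 tested higher and 1 lower, and a median of 0.59. The 3 genes that rose were all monocarboxylate transporters. Slc16a1, which carries ketone bodies and lactate across the plasma membrane, stood at 19.998 ± 0.949 FPKM in alcohol samples and 7.12 ± 0.816 FPKM in control samples, a log2 change of 1.37. Slc16a6, known in zebrafish as an exporter of beta-hydroxybutyrate from hepatocytes, stood at 4.54 ± 1.41 FPKM in alcohol samples and 0.503 ± 0.176 FPKM in control samples. Slc16a7, another monocarboxylate transporter, stood at 9.11 ± 1.02 FPKM in alcohol samples and 5.75 ± 0.817 FPKM in control samples, a log2 change of 0.59 ± 0.12 that did not pass with median-of-ratios scaling (adjusted p = 0.0573) or quantile normalization (0.0539). Bdh2, a cytosolic relative, fell with a log2 change of -1.05.

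Among 17 tested regulators of fatty acid oxidation, 4 rose and 2 fell, with a median of 0.12, and over the scalings tried 2 to 5 rose and 2 to 8 fell. Ppara, the receptor that activates many of these genes, had 7.48, 8.46, 13.9 and 8.83 FPKM in alcohol samples, against 29.8, 23.8, 21.0 and 20.8 FPKM in control samples. Alcohol replicate 3 was the highest of its group and still below every control sample, and the log2 change was -1.24 ± 0.18 (limma adjusted p = 0.000233). Acaca, the cytosolic carboxylase that makes malonyl-CoA, rose to 19.0 ± 1.40 FPKM in alcohol samples, against 8.78 ± 0.980 FPKM in control samples. Ncor1, a corepressor of nuclear receptors, rose with a log2 change of 0.79. Sirt1, the deacetylase of the study's title, stood at 3.07 ± 0.666 FPKM in alcohol samples and 1.80 ± 0.340 FPKM in control samples, a log2 change of 0.54 ± 0.14 that did not pass with median-of-ratios scaling (adjusted p = 0.0598) or quantile normalization (0.166).

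Of 27 PPARA targets outside mitochondrial beta-oxidation, 12 fell and 6 rose, with a median of -0.35, beside 13.0% lower and 44.2% higher among all tested genes. Fabp1, the fatty acid binding protein of hepatocyte cytosol, fell to 2429 ± 271 FPKM in alcohol samples, against 11137 ± 2786 FPKM in control samples. The fatty acid hydroxylases Cyp4a12a and Cyp4a12b fell with log2 changes of -2.36 and -2.23, and since their sequences are near-identical the split of reads between them is uncertain. Of the other Cyp4a genes listed, Cyp4a32 fell, and Cyp4a10, Cyp4a14 and Cyp4a31 were not called. Cyp4a10 and Cyp4a14 had log2 changes above 0, at 1.07 ± 0.53 and 1.82 ± 0.83 (limma adjusted p = 0.106 and 0.0811). Acot2, a mitochondrial thioesterase, was among the 6 that rose. It had 26.4 ± 4.99 FPKM in alcohol samples and 2.48 ± 1.27 FPKM in control samples, a log2 change of 3.04. The others that rose were Pdk4, Acot4, Abcd2, Cd36 and Cidec.

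The 24 tested genes of mitochondrial content moved both ways, with 4 higher, 5 lower and a median of 0.0021. Citrate synthase (Cs) stood at 67.7 ± 2.41 FPKM in alcohol samples and 39.2 ± 4.70 FPKM in control samples. Subunits of the import machinery moved both ways, Timm23 and Tomm20 higher with log2 changes of 1.00 and 0.94 and Tomm40 lower with one of -0.29 (limma adjusted p = 0.0213), and the cytochrome oxidase subunit Cox6b1 fell with one of -0.61. Over the scalings tried, the counts in this list ran from 3 to 7 higher and from 1 to 13 lower.

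**Figure D4:**
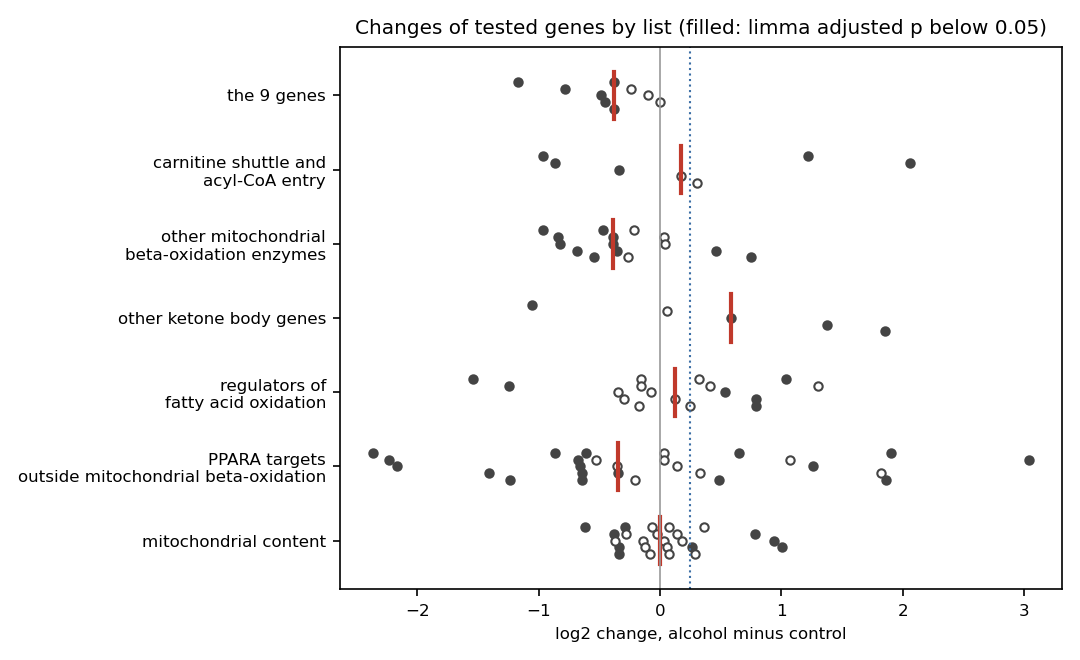
Log2 change (alcohol minus control) of each tested gene in the 9 genes and 6 lists around them, filled where the limma adjusted p was below 0.05, with the list median as a red bar and the median of all tested genes (0.24) as a dotted line. The 9 genes and the other beta-oxidation enzymes have medians of -0.38 and -0.39, and mitochondrial content has one of 0.0021.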

How the data were processed

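The authors deposited FPKM per gene symbol for 8 samples, and per the submitters' processing notes the builds were GRCm38 and mm10. Per the labels' protocols, total RNA was taken on columns into SMARTER mRNA libraries. The sources used here do not name the aligner, the counter, the annotation or the strand setting. Whole reads, with library totals, were recovered for 21044 of 21049 genes (99.98%) to a tolerance of 1e-06 of a read, using the smallest length that gave whole numbers, and served for depth and 1 alternative. Counting errors are Poisson and cover counting only.

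Groups came from the labels. The main test was run in R 4.3.3 with limma 3.58.1, on log2(FPKM + 1), over 9228 genes averaging 1 FPKM or more, with a variance trend, 2-sided, Benjamini-Hochberg adjusted over all of them at 0.05. Log2 changes are alcohol minus control on that scale, which understates changes of low genes. The fit was tested on simulated data. Exact permutation tests were 2-sided over 70 assignments. The 9 genes, 6 pathway lists and 10 marker lists were chosen with earlier results of these data known. All 9 genes, Slc25a20 and Ppara were named whatever their values, and up to 4 genes of each pathway list by smallest p. A few listed genes are not reported here and were left out of the lists. Etfa, Etfb, Acad10, Acad12, Tomm40 and Dvl2 were named after their values were seen, as were Pdk4, Acot4, Abcd2, Cd36 and Cidec. The same holds for Cyp4a10, Cyp4a14, Cyp4a31, Cyp4a32 and the genes named from the marker lists. Coordinates are from GENCODE M21 and promoter sequences from RefSeq.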

Additional observations from a re-analysis of the deposited data

Results flagged for a closer look

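A single sample stood far from the other 3 of its group in 5 of the 66 groups checked, 33 named genes with 2 groups each. Chance alone would give such a gap in about 5% of groups. None of the 5 was among the 9 genes of the pathway. Acaca was 21.1 FPKM in alcohol replicate 3, above the other alcohol samples. Acot2 was 33.9 FPKM in alcohol replicate 1, the highest of its group. Timm23 was 61.9 FPKM in alcohol replicate 2, while the other alcohol samples lay between 48.2 and 48.6 FPKM. Decr1 was 56.7 FPKM in control replicate 4, the lowest control, and Slc16a1 was 8.34 FPKM in control replicate 1, the highest control. In each case the groups of that gene still did not overlap.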

How the results depend on the processing

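Over the 33 named genes, 595 values under an alternative kept their direction and side of the threshold, 16 lost their call, 5 gained one and 9 turned round. Bdh1, Cpt2 and Acaa2 fell under every alternative run. On the TPM scale 3 of the 9 genes fell. Counts over all tested genes were 2170 higher and 2616 lower with median-of-ratios scaling, 2270 and 2275 with quantile normalization, and 1981 higher among the fewer genes that average 5 FPKM or more. Leaving out each sample in turn gave 3537 to 4362 higher and 1000 to 1278 lower, and 5 to 6 of the 9 genes lower. Acadm turned to 0.0155 with quantile normalization and 0.0493 on the TPM scale. Hadha turned to 0.134 and 0.1437 under these, to 0.0324 with alcohol replicates 2 and 4 averaged, and ran from -0.0617 to 0.0644 with each sample left out. The cause of these turns was not tested.

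The replicate numbers were not taken as pairs. Deviations of same-numbered samples correlated at 0.07 to 0.35, so that 1 pair lay under the 0.1 required of each. Missing that cut in 1 pair cannot show that the samples were unpaired. With the replicate number as a block, 4307 genes were higher and 1380 lower, and 6 of the 9 genes fell. In that fit Cpt1a kept its log2 change of -0.46, with an SE of 0.11 (limma adjusted p = 0.00767). The planned count model was not run, since counts were not among the files used here. In its place voom in limma, added after seeing the data, was run on the recovered reads and called 4087 genes higher and 1187 lower, with 6 of the 9 genes lower. Counting error of the 9 genes was at most 1.88% of the value, and the smallest coefficient of variation between samples of a group was 2.98%, for Acadl in alcohol samples.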

Other observations

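Genes that mark the zones of the liver lobule moved both ways, with a median log2 change of -0.53 for periportal and -0.31 for pericentral markers. Among all tested genes 13.0% were lower and 44.2% higher, with a median of 0.24. Of 9 periportal markers 2 rose (Ass1 and Hsd17b13) and 5 fell, with summed values of 3157 to 4768 FPKM in alcohol samples and 4496 to 4829 FPKM in control samples. The gluconeogenic enzyme Pck1 stood at 381 ± 142 FPKM in alcohol samples and 1181 ± 154 FPKM in control samples (SD, n = 4 each). Ass1 stood at 1864 ± 425 FPKM in alcohol samples and 1337 ± 126 FPKM in control samples. Of 9 tested pericentral markers 3 rose (Cyp1a2, Slc1a2 and Axin2) and 4 fell, with sums of 5129 to 6558 FPKM in alcohol samples and 7254 to 9285 FPKM in control samples. Rgn, a calcium-binding lactonase, stood at 239 ± 16.8 FPKM in alcohol samples and 808 ± 98.0 FPKM in control samples. In the other direction, Axin2 stood at 2.78 ± 0.296 FPKM in alcohol samples and 0.503 ± 0.102 FPKM in control samples. Cyp1a2 stood at 544 ± 167 FPKM in alcohol samples and 331 ± 42.8 FPKM in control samples. Pck1 and Rgn had the lowest log2 change of their lists, and all these genes were named after their values were seen.

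Of the other marker lists, red blood cell genes summed to 122 to 196 FPKM in alcohol samples and 179 to 362 FPKM in control samples, with 1 of 5 tested lower. Cholangiocyte markers summed to 15.9 to 26.7 FPKM in alcohol samples and 19.0 to 41.8 FPKM in control samples, with 1 tested and not called. Markers of T cells, B cells and neutrophils summed to 1.67 to 32.6 FPKM in alcohol samples and 4.34 to 6.50 FPKM in control samples, with neither of the 2 tested called. The upper end came from alcohol replicate 1, where S100a8 was 13.7 FPKM and S100a9 18.4 FPKM, against at most 1.24 and 2.88 FPKM in the other alcohol samples. Adipocyte markers summed to at most 0.428 FPKM in alcohol samples and to 4.10 to 25.3 FPKM in control samples, and the 1 tested, Cfd, fell. Cfd made up most of the control sums, at 3.30, 25.3, 17.9 and 7.08 FPKM in control replicates 1 to 4, while Adipoq, Lep and Plin1 were listed at 0 in control replicate 2.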
